A study of Mus musculus with 4 samples.

Results

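The luminal keratins Krt7, Krt8, Krt18 and Krt19 are the keratins of the inner, milk-facing cell layer of the mammary gland. These 4 genes were measured by 5 of the 45141 probe sets of the array, namely those that the platform annotation assigns to exactly 1 of the 4 symbols. Krt8 had 2 such probe sets and the other genes 1 each, and the brighter Krt8 probe set stands for that gene, so that the 4 genes are set among 17097 genes with 1 probe set each.

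Mouse mammary gland cells were transplanted, sorted after 3 days and profiled on arrays that report RNA as log2 expression values. In the BC alone group the transplant held 10000 BC cells and no LC cells, a setting named multipotent in the labels. In the control group it held 2000 BC cells mixed with 8000 LC cells, named unipotent. There were 2 arrays a group, each made from 50 sorted cells. The abbreviations commonly stand for basal and luminal cells, which the labels do not state. No strain, age or genotype of the mice, gate of the sort or number of animals is given in the sources used here, so p-values rest on a spread between arrays that may be technical. The comparison asks whether the luminal keratins differed between BC cells transplanted without LC cells and the mixture. The groups also differ in the number of BC cells, and the labels do not say if sorted control cells included LC cells. These differences between the transplants cannot be told apart.

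Keratins are the intermediate filament proteins of epithelial cells. Each filament is built from pairs of 1 type I and 1 type II keratin. In simple epithelia the type II keratin Krt8 pairs mainly with the type I keratin Krt18, and Krt7 (type II) and Krt19 (type I) join them in ducts and glands. In the mammary gland these keratins mark the luminal layer, while Krt5 and Krt14 form the filaments of the basal, myoepithelial layer. Cells that carry keratins of both layers are known from the embryonic gland and from transplanted or stressed basal cells.

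On the arrays, 3 of the 4 resembled each other, and control replicate 2 stood apart. Pearson correlations over all probe sets, which are not independent replicates, were 0.968 to 0.972 among the other 3 arrays and 0.915 to 0.919 with control replicate 2. The SD over all probe sets was 1.44 on that array and 1.90 to 1.92 on the others, and its median was 4.62 against 4.37 to 4.38. Differences are therefore also given against control replicate 1 alone. Basal markers were among the genes it held at low values. Krt5 had log2 values of 10.47 and 10.22 in BC alone, and 10.76 and 7.12 on control replicates 1 and 2.

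Krt8 and Krt18 lie side by side on mouse chromosome 15, with no other protein-coding gene between them in the RefSeq table, and Krt7 lies on the same chromosome. Krt19 lies on chromosome 11. Krt8 and Krt18 were both low on control replicate 2, as were nearly all genes of their level, and Krt7 was not. Among the other arrays, BC alone replicate 1 was the highest for Krt8 and the lowest for Krt18. The promoters of these 3 genes, those that the RefSeq promoter table holds, are shown. Each stretch of 300 bases runs from 250 bases before to 50 bases after the start of the gene in RefSeq, build GRCm38.p6, written 5′ to 3′ along the gene. Capitals mark matches to any of 3 motifs on either strand. The TATA box was searched as TATAAA. The GC box, which Sp1-type factors bind, was searched as GGGCGG. The site of AP-1 factors was searched as TGACTCA. The Krt8 stretch is chr15:102004293-102004592 on the minus strand, the Krt18 stretch is chr15:102027966-102028265 on the plus strand, and the Krt7 stretch is chr15:101412153-101412452 on the plus strand.
Krt8: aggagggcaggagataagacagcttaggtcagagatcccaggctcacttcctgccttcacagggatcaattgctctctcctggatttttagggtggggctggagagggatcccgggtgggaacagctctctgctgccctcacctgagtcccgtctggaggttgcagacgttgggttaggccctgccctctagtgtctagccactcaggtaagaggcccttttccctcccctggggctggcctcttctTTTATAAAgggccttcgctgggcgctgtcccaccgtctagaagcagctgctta
Krt18: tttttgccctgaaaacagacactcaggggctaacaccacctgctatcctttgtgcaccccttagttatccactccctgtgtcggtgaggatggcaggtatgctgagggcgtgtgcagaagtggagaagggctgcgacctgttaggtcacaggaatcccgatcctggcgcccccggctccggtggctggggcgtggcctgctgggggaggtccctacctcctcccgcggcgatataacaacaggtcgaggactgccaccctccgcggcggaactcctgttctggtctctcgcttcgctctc
Krt7: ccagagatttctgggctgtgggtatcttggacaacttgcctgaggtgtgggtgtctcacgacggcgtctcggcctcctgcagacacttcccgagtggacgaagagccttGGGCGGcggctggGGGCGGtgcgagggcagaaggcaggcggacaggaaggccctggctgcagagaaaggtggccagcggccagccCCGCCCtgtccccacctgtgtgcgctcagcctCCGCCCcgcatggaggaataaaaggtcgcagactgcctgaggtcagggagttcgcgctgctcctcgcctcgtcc
The Krt8 stretch held TATAAA from base 250, and a match on the opposite strand from base 248 overlapped it. Base 250 is 1 base before the annotated start, so this match spans the start, and whether it works as a TATA box was not tested. The Krt7 stretch held 4 GC boxes, starting at bases 110, 123, 195 and 227. The Krt18 stretch held none of the 3 motifs, which says only that these letters are not in this window. Of the 32851 promoters of the table, 13.6% held TATAAA, 35.7% GGGCGG and 5.20% TGACTCA on either strand. A match is a description of the letters and was not tied to binding.

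Krt8, the type II keratin of all simple epithelia, was at a closely similar level on 3 arrays and lower on control replicate 2. It had log2 values of 10.42 and 10.3 in BC alone, and 10.16 and 8.0 on control replicates 1 and 2. Both BC alone arrays lay above both controls, by 0.14 or more against control replicate 1 and by 2.3 or more against control replicate 2. The mean was 10.36 ± 0.08 on the BC alone arrays, against 9.08 ± 1.53 on the control arrays (SD, n = 2 each), a log2 difference of 1.28 ± 0.71 (SE) or 2.43-fold (limma, adjusted p = 0.842). Against control replicate 1 alone the difference was 0.20, or 1.15-fold. The dimmer Krt8 probe set had 10 and 9.96 in BC alone, and 9.96 and 7.87 in the control, so that on it the groups touched at 9.96 and the difference against control replicate 1 was 0.02. Its suffix marks probes that can also bind other transcripts, and RefSeq lists the pseudogene Krt8-ps on chromosome 7.

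Krt18, the type I partner of Krt8, behaved alike on control replicate 2 but did not separate the groups. It had 9.32 and 9.68 in BC alone, and 9.67 and 7.78 on control replicates 1 and 2. BC alone replicate 2 and control replicate 1 differed by 0.01, and BC alone replicate 1 was lower than both. The mean was 9.5 ± 0.25 on the BC alone arrays, against 8.73 ± 1.34 on the control arrays (SD, n = 2 each), a log2 difference of 0.78 ± 0.65 (SE; limma, adjusted p = 0.842). The sign turned without control replicate 2, at -0.17. On control replicate 2, Krt8 lay 2.29 and Krt18 1.78 log2 units below the mean of the other 3 arrays.

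**Figure D1:**
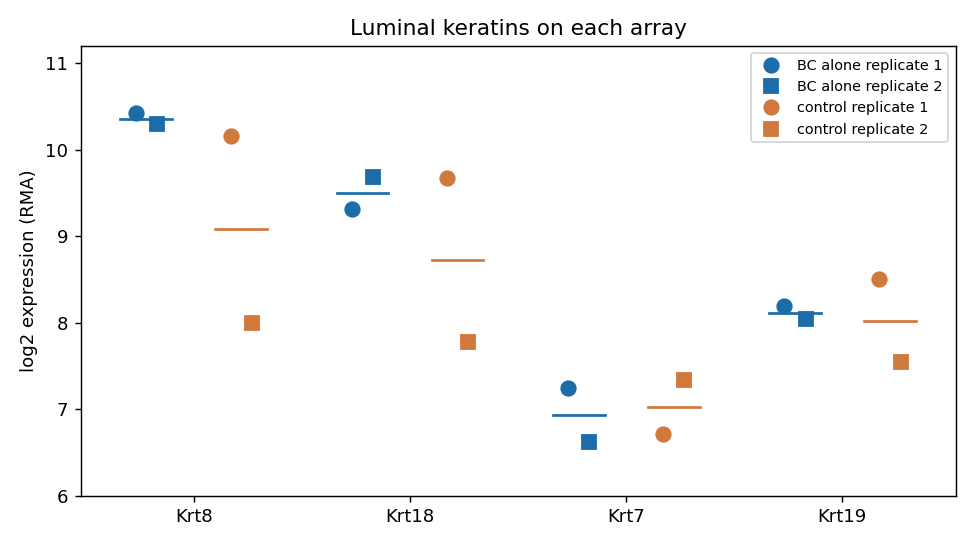
Log2 expression of each luminal keratin (vertical axis) on each array, for Krt8, Krt18, Krt7 and Krt19 from left to right. Blue points are BC alone and orange points the control, circles replicate 1 and squares replicate 2, and bars are group means; Krt8 and Krt18 are at 8.0 and 7.78 on control replicate 2, while Krt7 is highest there at 7.34.

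Krt7, a type II keratin of ducts and glands, did not share this pattern. It had 7.24 and 6.62 in BC alone, and 6.71 and 7.34 on control replicates 1 and 2, so control replicate 2 was the highest array and the groups overlapped. The spread within each group, 0.62 in BC alone and 0.63 in the control, exceeded the log2 difference of -0.10 ± 0.40 (SE; limma, adjusted p = 0.932). Against control replicate 1 alone the difference was 0.22, with 1 BC alone array above and the other below it.

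Krt19, the smallest type I keratin, which lacks most of the tail domain, was highest on control replicate 1 and lowest on control replicate 2. It had 8.19 and 8.04 in BC alone, and 8.51 and 7.54 in the control, so both BC alone arrays lay between the controls. The mean was 8.12 ± 0.11 on the BC alone arrays, against 8.03 ± 0.69 on the control arrays (SD, n = 2 each), a log2 difference of 0.09 ± 0.42 (SE; limma, adjusted p = 0.939). Against control replicate 1 alone it was lower by 0.32 and 0.47 on the BC alone arrays, a mean difference of -0.395.

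Not one of the 4 luminal keratins passed the test, and neither did any other gene. The share of all 17097 genes called at an adjusted p of 0.05 in limma was 0%, and 680 genes (3.98%) had an unadjusted p under 0.05, none of the 4 among them. Under an intensity trend in the variance model, 97 genes passed, and again none of the 4. By size alone, 1 of the 4 (Krt8) was at least 2-fold higher in BC alone without overlap, and 0 were lower. Over all genes the shares were 4.79% and 0.895%, or 819 higher and 153 lower genes. Without a limit on size, 16.8% of all genes were higher and 19.6% lower without overlap. That split depended on the scaling, with 334 higher and 280 lower after repeated quantile normalization of the 4 arrays, 301 and 232 after cyclic loess, and 1143 and 100 after median centring. Set against control replicate 1 alone, 0 of the 4 were 2-fold different, where 2.19% of all genes were higher and 2.09% lower. Krt8 was above control replicate 1 on both BC alone arrays and Krt19 below it on both, where 33.2% and 33.8% of all genes were.

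The data leave room for sizeable differences in either direction. The 95% intervals of the log2 difference, from limma's moderated variance, were -0.51 to 3.07 for Krt8, -0.85 to 2.40 for Krt18, -1.08 to 0.89 for Krt7 and -0.95 to 1.13 for Krt19. With 2 arrays a group, the smallest p of an exact permutation test is 0.333. In bulk samples, fewer cells of a type and less RNA per cell cannot be told apart. Scaling the arrays anew narrowed the differences of Krt8 and Krt18, to 0.55 and 0.07 after quantile normalization and to 0.44 and 0.01 after cyclic loess. The same scalings made Krt19 lower in BC alone, at -0.55 and -0.54, and moved Krt7 to -0.67 and -0.54. After quantile normalization Krt19 had 7.9 and 7.76 in BC alone, and 8.23 and 8.53 in the control, so on that scale both BC alone arrays were below both controls (limma, adjusted p = 0.881). The share of all genes below both controls on that scale was not counted, and as deposited it was 19.6%. Median centring raised the median difference of all genes by 0.125, and relative to the median of all genes the 4 differences were the same with and without it, at 1.32, 0.815, -0.055 and 0.13 for Krt8, Krt18, Krt7 and Krt19.

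**Figure D2:**
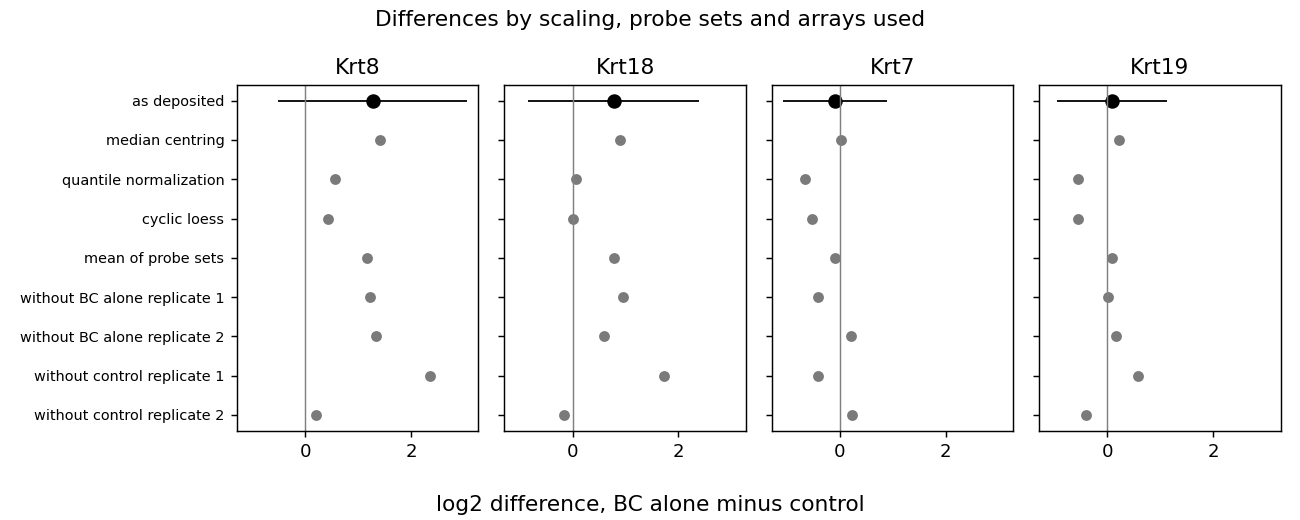
Log2 difference of each luminal keratin, BC alone minus control (horizontal axis), with the values as deposited (black, with the 95% interval) and after rescaling, averaging of probe sets or removal of 1 array (grey). Krt8 runs from 0.20 without control replicate 2 to 2.36 without control replicate 1 and is above 0 in each row, while Krt18, Krt7 and Krt19 have rows on both sides of 0.

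How low Krt8 and Krt18 were on control replicate 2 has to be read against other genes of similar level, since bright genes were generally low there. Of 717 genes with a mean of 9 or more over the 4 arrays, a limit chosen after the values were seen, 707 were lowest on control replicate 2, against 34.1% of all genes. The gap below the other 3 arrays had a median of 1.59 among the 280 genes with a log2 level of 10 to 11 on those arrays, and its 5th and 95th percentiles were 0.795 and 2.66. Krt8, at 2.29, lay within that range. Krt18, at 1.78, lay near the median of 1.66 of the 633 genes at 9 to 10. The basal genes Krt5, Krt14 and Trp63 (p63, the transcription factor of basal cells) had gaps of 3.36, 3.39 and 3.57, each above the 95th percentile at its level. The Krt14 probe set carries the same suffix as the dimmer Krt8 one, so its probes can also bind other transcripts.

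Krt19 and Krt7 lay below the median of their level but, like Krt8 above it, between the 5th and 95th percentiles. The gap of Krt19 was 0.707, where the 1074 genes at 8 to 9 had a median of 1.39 and a 5th percentile of 0.429. Krt7 was higher on control replicate 2 than on the mean of the other arrays, with a gap of -0.48, where the 2117 genes at 6 to 7 had a median of 0.51 and a 5th percentile of -0.63. These positions describe 1 array and carry no test.

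**Figure D3:**
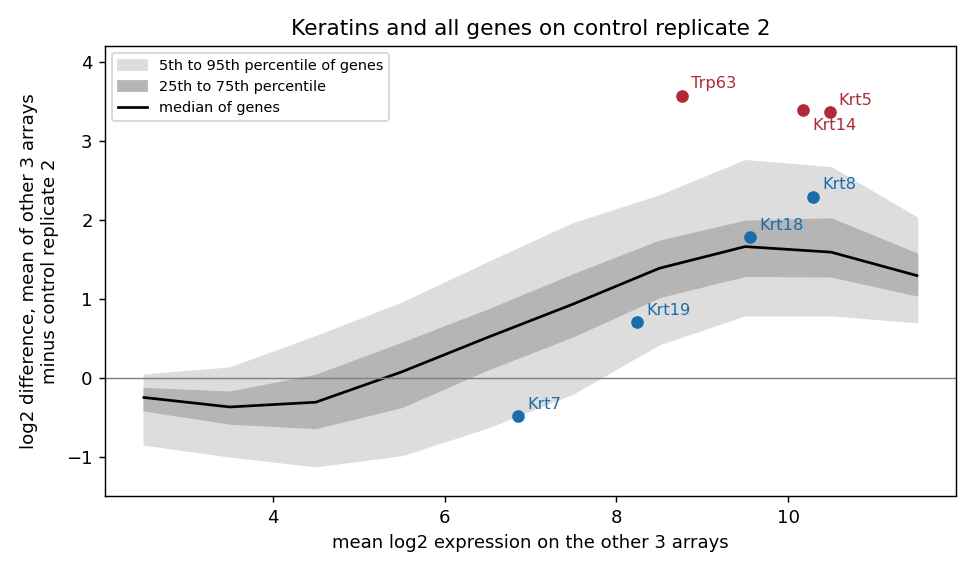
Log2 gap of control replicate 2 below the mean of the other 3 arrays (vertical axis) against the mean log2 level on those 3 arrays (horizontal axis), with the median and percentile bands of genes in bins 1 log2 unit wide. Against the genes of their own bin, luminal keratins (blue) lie between the 5th and 95th percentiles, Krt7 and Krt19 below the median and Krt8 above it. The bands are drawn between bin centres, and on the drawn band Krt7 lies at the lower edge. Krt5, Krt14 and Trp63 (red) lie above the band.

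Ranks within an array do not depend on its scale. As a percentile of all genes, Krt8 ranked at 98.6 and 98.4 in BC alone, and at 98.1 and 95.9 on control replicates 1 and 2. Krt18 ranked at 95.3 and 96.6 in BC alone, and at 96.8 and 94.7 in the control. Both therefore stayed among the brightest genes of control replicate 2. Krt7 ranked at 80.3 and 72.9 in BC alone, and at 74.7 and 91.3 in the control. Krt19 ranked at 88.7 and 87.3 in BC alone, and at 91.4 and 93.1 in the control, so by rank both control arrays were above both BC alone arrays. The share of all genes ordered this way by rank was not counted. On the values as deposited, 19.6% of all genes were lower in BC alone without overlap. The basal keratin Krt14 ranked at 98.2 and 97.1 in BC alone, and at 98.7 and 84.8 in the control.

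**Figure D4:**
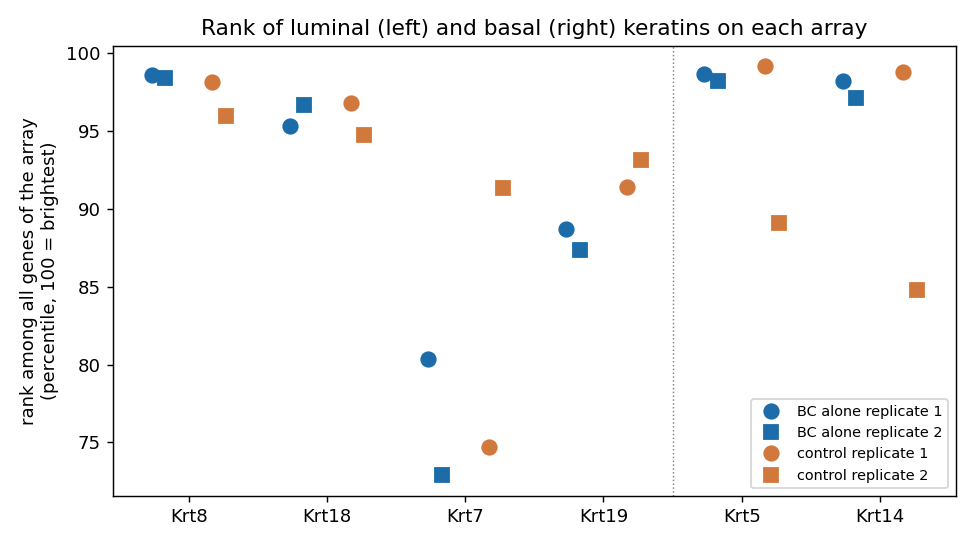
Rank of each keratin among the 17097 genes of each array (vertical axis, percentile, 100 the brightest), with luminal keratins left of the dotted line and basal keratins right of it. Blue points are BC alone and orange points the control; on control replicate 2 (orange squares) Krt7 and Krt19 rank at 91.3 and 93.1, their highest of the 4 arrays, and Krt5 and Krt14 at 89.1 and 84.8, their lowest.

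The rest of the keratin family gave 37 measured genes, most of them dim on these arrays. Of these 6 had a higher and 31 a lower mean in BC alone, the median log2 difference was -0.27 against -0.04 over all genes, and 0 passed in limma in either direction. No overlap between the groups was seen for 13, all lower in BC alone, where 19.6% of all genes were lower without overlap. Control replicate 2 was the highest array for 27 of the 37 and for 40.4% of all genes, a share that was larger among dim genes. At a log2 level of 3 to 4 on the other arrays it was highest for 18 of 20 of these keratins and for 76.3% of all genes. Without the dimmer genes, 4 of 11 keratins had a higher and 7 a lower mean. Against control replicate 1 alone the median was -0.055, with 12 higher and 25 lower. Among the 10 measured stratified and basal keratins, 3 had a higher and 7 a lower mean, and against control replicate 1 alone 2 were higher.

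The keratins outside the luminal group with the smallest p were Krt6b, Krt6a and Krt4. Krt6a and Krt6b are induced in wounded and hyperproliferative epidermis. Krt6b had 3.06 and 2.39 in BC alone, and 4.10 and 3.76 in the control, a log2 difference of -1.205 ± 0.37 (SE; limma, adjusted p = 0.842), and -1.375 against control replicate 1 alone, and its levels lay under the array medians. Krt6a had 7.32 and 6.0 in BC alone, and 8.95 and 6.97 in the control, highest on control replicate 1, and the groups overlapped. Its difference of -1.30 was -2.29 against control replicate 1 alone and -0.20 with the mean of its probe sets. Krt4, a keratin of oesophageal and other mucosal linings, had 4.81 and 5.02 in BC alone, and 4.97 and 8.08 in the control, so that control replicate 2 alone was high, and its difference of -1.61 was -0.055 against control replicate 1 alone and -0.62 with the mean of its probe sets. Of the other simple epithelial keratins, Krt20, Krt23 and Krt80, 1 had a higher mean and 2 a lower one, with 0 past the test.

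Desmosomes, the junctions to which keratin filaments attach, and cytolinkers, which tie the filaments to membranes and other filaments, included 8 of 15 measured genes that were lowest on control replicate 2. Among all genes 34.1% were lowest there. The 8 lay at log2 levels of 8 to 11 on the other arrays, and in the bins of that range 96.4% to 99.3% of genes were lowest there. Of the 15 genes 9 had a higher and 6 a lower mean in BC alone, the median difference was 0.41, and 0 passed in limma. Without control replicate 2, 4 were higher and 11 lower, with a median of -0.215. Dsp, desmoplakin, which anchors keratins to the desmosome, had 10.57 and 10.41 in BC alone, and 10.35 and 7.57 in the control. Plec, plectin, had 9.99 and 9.71 in BC alone, and 9.70 and 8.25 in the control. For both, control replicate 2 alone was low and the difference against control replicate 1 was 0.14 and 0.15. Evpl, envoplakin of the cornified envelope, had 5.68 and 5.53 in BC alone, and 5.97 and 6.68 in the control, a difference of -0.72 ± 0.36 (SE), and -0.365 against control replicate 1 alone. With Pkp2, a plakophilin of desmosomes named after its values were seen, these were the 4 of 15 genes without overlap, 2 higher and 2 lower, where 16.8% of all genes were higher and 19.6% lower. Of 7 proteins that bind keratins, 6 had a higher and 1 a lower mean, 2 were higher than on control replicate 1 alone, and 0 passed.

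Among the other intermediate filament genes, 4 of 12 had a higher mean in BC alone and 8 a lower one, with a median of -0.16, or 0.03 without control replicate 2, and 0 past the test. Vim, vimentin, the filament of mesenchymal cells, which basal mammary cells also express, had 10.82 and 10.15 in BC alone, and 9.81 and 8.55 in the control. Both BC alone arrays were above both controls, by a mean log2 difference of 1.305 ± 0.52 (SE; limma, adjusted p = 0.842), and 0.675 against control replicate 1 alone. Synm, synemin, had 4.13 and 4.51 in BC alone, and 5.61 and 5.07 in the control, a difference of -1.02, and -1.29 against control replicate 1 alone. Lmna, which encodes the nuclear lamins A and C, had 11.08 and 10.88 in BC alone, and 11.0 and 9.29 in the control. On this brightest probe set, again only control replicate 2 was low. The Lmna difference of 0.835 was 0.16 with the mean of its probe sets, and after cyclic loess it turned to -0.11.

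Among the transcription factors of luminal cells, Esr1, Gata3 and Tfap2a were higher in BC alone than on either control array. Of 13 measured, 8 had a higher and 4 a lower mean in BC alone, Grhl2 had equal means, the median difference was 0.335, and 0 passed in limma. Without overlap 3 were higher and 1 lower, where 16.8% of all genes were higher and 19.6% lower. Foxa1 had 5.42 and 4.21 in BC alone, and 4.79 and 7.36 in the control, a difference of -1.26. Cited1 had 5.97 and 6.04 in BC alone, and 5.34 and 9.28 in the control, a difference of -1.305. Both were highest on control replicate 2, and against control replicate 1 alone their differences were 0.025 and 0.665. Tfap2a had 9.13 and 9.23 in BC alone, and 8.97 and 7.54 in the control. Its difference of 0.925 was 0.21 against control replicate 1 alone. Its gap on control replicate 2 below the other arrays was 1.57, near the median of 1.66 of genes at 9 to 10. Tfap2a, Foxa1 and Cited1 were named after their values were seen. Esr1, the estrogen receptor of hormone-sensing luminal cells, had 8.13 and 9.19 in BC alone, and 6.48 and 6.72 in the control. Its log2 difference was 2.06 ± 0.44 (SE; limma, adjusted p = 0.842), and 2.18 against control replicate 1 alone. Gata3, a regulator of luminal identity, had 6.52 and 6.85 in BC alone, and 5.70 and 5.05 in the control, a difference of 1.31 ± 0.37 (SE), and 0.985 against control replicate 1 alone. Ovol1, an epithelial repressor of mesenchymal genes, had 5.82 and 5.81 in BC alone, and 7.80 and 6.37 in the control, lower on both BC alone arrays, by a mean of -1.985 against control replicate 1 alone. The median of the list was -0.13 after quantile normalization and 0.07 without control replicate 2.

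The wider luminal marker list, which holds the 4 keratins, had 11 of 15 measured genes with a higher and 4 with a lower mean in BC alone, and 5 above both controls on both arrays, where 16.8% of all genes were. After quantile normalization or cyclic loess 3 were higher and 2 lower without overlap, and the shares of all genes on those scales were not counted. Without control replicate 2, 8 of the 15 were higher, with a median difference of 0.2. Its summed linear level was 6620 and 7248 in BC alone, and 6936 and 2443 in the control. Epcam, a surface protein of all mammary epithelial cells, had 9.45 and 10.02 in BC alone, and 10.11 and 7.54 in the control. Cdh1, E-cadherin, had 6.35 and 6.81 in BC alone, and 7.02 and 6.37 in the control. The summed linear level of the 4 luminal keratins themselves was 2452 and 2443 in BC alone, and 2428 and 824 in the control, so the BC alone arrays and control replicate 1 spanned 24.4 units and control replicate 2 stood below them.

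Most measured markers of the basal layer were low on control replicate 2. Those of fibroblasts and endothelium were higher in BC alone than on both controls in their sums. Of 9 measured basal markers 7 were lowest on control replicate 2, as were 34.1% of all genes. These 7 lay at log2 levels of 7 to 11 on the other arrays. In the bins of that range 80.9% to 99.3% of genes were lowest on control replicate 2, so the count alone does not set basal markers apart. The summed linear level of the basal markers was 6506 and 5085 in BC alone, and 6631 and 613 in the control. Trp63 had 8.74 and 8.76 in BC alone, and 8.81 and 5.20 in the control. Krt15 and Oxtr, named after their values were seen, were the basal markers not lowest on control replicate 2. Krt15 had 5.62 and 5.65 in BC alone, and 5.93 and 5.95 in the control. Oxtr had 5.16 and 5.54 in BC alone, and 5.98 and 5.40 in the control. Fibroblast markers were higher in BC alone for 7 of 8 genes by mean, with summed levels of 5659 and 6355 in BC alone, and 3679 and 1299 in the control. Their median difference was 1.725, and 0.8325 without control replicate 2, and 0 passed in limma on the values as deposited. The type I collagen gene Col1a1 had 10.84 and 10.91 in BC alone, and 10.3 and 8.62 in the control. Endothelial markers had a higher mean for 5 of 5, with sums of 682 and 599 in BC alone, and 418 and 306 in the control, while their defining gene Pecam1 had 7.63 and 6.82 in BC alone, and 7.17 and 7.14 in the control.

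Leukocyte markers had a higher mean in BC alone for 2 of 5, with sums of 262 and 341 in BC alone, and 406 and 344 in the control, and Ptprc (CD45) lay at 2.91 and 3.27 in BC alone, and 4.21 and 3.26 in the control, under the median of each array. Mesothelium also makes these simple keratins. Its markers had a higher mean for 1 of 4, with sums of 50.0 and 54.3 in BC alone, and 49.3 and 86.5 in the control, and Msln was under the array medians throughout, at 3.46 and 3.11 in BC alone, and 2.33 and 3.90 in the control. The 2 measured adipocyte markers summed to 530.4 and 524 in BC alone, and 284 and 319 in the control. Nearly all of these sums came from Fabp4, with 9.03 and 9.0 in BC alone, and 8.11 and 8.27 in the control. Adipoq lay under the array medians, at 2.94 and 3.58 in BC alone, and 2.97 and 3.41 in the control, a difference of 0.07. Both were named after their values were seen. RMA values are never 0, so no marker was listed at 0. The part of these cell types in the keratin values was not tested.

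Genes whose profile over the 4 arrays was most like each luminal keratin were found by the root mean square difference of values after each gene's mean was subtracted. For Krt8 they were Pde4b, a phosphodiesterase, and Prelid1, a mitochondrial lipid transfer protein, at 0.026 and 0.030 log2 units. For Krt18 they were Btf3 and Snrpe, a core protein of the spliceosome, at 0.019 and 0.031. For Krt7 they were Pramel12 and 2610318N02Rik, at 0.027 each, and for Krt19 2410002F23Rik and Pgs1, at 0.024 and 0.033. With 4 arrays many genes come close, and 290, 545, 1042 and 780 genes lay within 0.2 of Krt8, Krt18, Krt7 and Krt19. Among the luminal keratins, Krt8 and Krt18 were the closest pair, at 0.319. Of all genes 4.66% were closer to Krt8 than Krt18 was, and 9.21% were closer to Krt18 than Krt8 was. Krt7 and Krt8 were the farthest pair, at 1.22. The distance of Krt8 to the basal keratin Krt5 was 0.529, larger than to Krt18 and smaller than to Krt19, at 0.729.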

How the data were processed

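The authors deposited a log2 expression value for each probe set and array. They used RMA and affy, per the submitters' processing notes, with no version or build named. RMA corrects background, normalises quantiles and summarises the probes of a set, and it compresses large differences. The values do not show if the 4 arrays were normalised together, and no detection calls came with them. No filter on dim probe sets was used. The number of arrays limits the precision.

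Of 45141 probe sets the platform annotation gave 28898 1 gene symbol and 551 several, and 15692 are unnamed here. Only those with 1 symbol were used, and the brightest by mean stood for a gene. BC alone was compared with the control in limma 3.58.1 under R 4.3.3 (lmFit and eBayes, two-sided, no trend, block or robust weights, Benjamini-Hochberg over 17097 genes, 2 residual degrees of freedom). The fit was tested on simulated data. No 2 arrays held the same values, with at most 771 identical. Alternatives were 3 scalings, the mean of probe sets, no dimmer genes, trend, robust variance, the replicate block and leaving out each array.

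The luminal keratins and the 14 other lists were chosen with earlier results of these data known. Besides the 4 keratins, the text names up to 3 genes with the smallest p from each of 4 lists, the 2 genes most like each keratin and 9 defining markers. Promoters come from RefSeq, build GRCm38.p6, which held 3 of the 4 genes.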

Additional observations from a re-analysis of the deposited data

How the results depend on the processing

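None of the 4 luminal keratins passed in limma under any alternative, with adjusted p from 0.084 to 0.999. Krt8 kept its sign under each. The number of genes past the threshold was 0 as deposited, 97 with an intensity trend and 108 with the replicate block. The replicate numbers of the titles did not pair the arrays by any label, and deviations of same-numbered arrays correlated at -0.0026. With that block Krt8, Krt18, Krt7 and Krt19 had adjusted p = 0.432, 0.891, 0.984 and 0.984 in limma, and over all lists Esr1 (2.06, adjusted p = 0.0159), 4 of 8 fibroblast markers (Dcn, Fap, Lum, Thy1) and 1 of 9 basal markers (Myh11) passed. With the trend Krt6b (-1.205, adjusted p = 4.73e-04), 2 fibroblast markers (Fap, Lum) and 1 endothelial marker (Tek) passed, named after their values were seen. Genes at least 2-fold different without overlap numbered 972, and 614 after quantile normalization, 533 after cyclic loess, 620 with the mean of probe sets, and 732 to 3824 without 1 array.

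The sign turned after median centring for Krt7 (0.03), Pramel12 (0.045), 2610318N02Rik (0.05) and Cdh1 (0.01). It turned after quantile normalization for Krt19 (-0.55), 2610318N02Rik (0.0475), 2410002F23Rik (-0.0925), Pgs1 (-0.22) and Pecam1 (-0.47), and after cyclic loess for Krt19 (-0.54), Lmna (-0.11), 2610318N02Rik (0.11), Snrpe (-0.0138), 2410002F23Rik (-0.20), Pgs1 (-0.30) and Pecam1 (-0.42). Without 1 array the differences spanned 0.2 to 2.36 for Krt8, -0.17 to 1.72 for Krt18, -0.41 to 0.22 for Krt7 and -0.395 to 0.575 for Krt19. Others whose sign turned spanned -0.02 to 1.69 (Lmna), -0.43 to 0.27 (Pramel12), -0.41 to 0.26 (2610318N02Rik), -0.13 to 1.75 (Btf3), -0.17 to 1.69 (Snrpe), -0.405 to 0.595 (2410002F23Rik), -0.375 to 0.545 (Pgs1), -0.415 to 3.225 (Krt5), -0.475 to 3.235 (Krt14), -0.06 to 3.55 (Trp63), -0.375 to 2.195 (Epcam), -0.44 to 0.21 (Cdh1), -0.335 to 0.475 (Pecam1) and -0.615 to 0.955 (Msln). The lowest values of Krt18, Krt19, Krt5, Krt14, Trp63 and Epcam were those without control replicate 2. The cause was not tested.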
